A study of Homo sapiens with 12 samples.

Results

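The genes described here encode the enzymes and carriers that bring glucose into the cell and convert it along glycolysis, to lactate, through the pentose phosphate pathway and into the hexosamine pathway. They are 36 genes taken by symbol from a table of 58735 genes: 2 glucose carriers, 9 genes of upper glycolysis, 3 that control fructose 2,6-bisphosphate, 6 of lower glycolysis, 4 of lactate formation and export, 8 of the pentose phosphate pathway and 4 of the hexosamine pathway. All 36 were found, and all 36 passed the filter on low counts. Messenger RNA was sequenced from KP4 and MiaPaca2, established lines of human pancreatic ductal adenocarcinoma cells, each given the solvent DMSO or 100 nM trametinib for 48 h. Trametinib blocks the kinases MEK1 and MEK2, which activate the growth-signalling kinases ERK1 and ERK2. The 4 groups were KP4 with DMSO, KP4 with trametinib, MiaPaca2 with DMSO and MiaPaca2 with trametinib, with 3 libraries each. All cells grew in DMEM medium with 10% fetal bovine serum, penicillin and streptomycin, and 15 mM HEPES buffer. Whether the 3 libraries of a group are separate cultures is not said in the labels, and p-values therefore cover only the spread among these libraries, which may be technical. Each line stands for 1 tumour, so a difference between the lines is a difference between these lines only.

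Glucose enters cells through facilitative carriers of the SLC2A family and is trapped as glucose 6-phosphate by hexokinase. Upper glycolysis spends ATP to form and cleave fructose bisphosphate, lower glycolysis earns ATP and ends at pyruvate, and lactate dehydrogenase with the SLC16A carriers turns pyruvate into lactate and exports it. Side branches lead to ribose phosphate and NADPH (the pentose phosphate pathway) and to UDP-N-acetylglucosamine, the sugar donor for glycosylation (the hexosamine pathway). In pancreatic cancer cells, signalling through ERK and the transcription factor MYC is known to raise many of these genes.

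Levels are given as CPM, the counts of a gene relative to all counts of its library, in parts per 1000000, after scaling the libraries to each other. Total counts ran from 20293688 to 28018129 per library, and the 36 genes together held between 1.56% and 2.20% of them. A CPM value is a share of the RNA, so fewer cells and less RNA per cell cannot be told apart from it. Fold changes are on the log2 scale and are given with their standard error. A gene was called changed where the p-value of edgeR's quasi-likelihood test, adjusted by the Benjamini-Hochberg method over the 16133 genes tested, was under 0.05, with n = 3 libraries per group throughout. The targets of ERK signalling fixed as a check fell in both lines: the log2 changes in KP4 and MiaPaca2 were −6.60 and −6.03 for SPRY4, −6.63 and −5.76 for DUSP6, −6.84 and −6.72 for ETV4, and −1.63 and −0.58 for the cyclin gene CCND1. The 7 ductal epithelial markers summed to between 362 and 375 CPM in untreated KP4 and between 226 and 234 in treated KP4. In MiaPaca2 they summed to between 1829 and 2201 CPM untreated and between 738 and 754 treated. The members did not all follow the sum: in KP4 KRT8, KRT19 and CDH1 rose and KRT18 and SOX9 fell, and in MiaPaca2 EPCAM and CDH1 rose and KRT8, KRT18, KRT19 and SOX9 fell, with CDH1 rising by 3.39 and 3.95. The 4 mesenchymal markers, mostly VIM, summed to between 3819 and 3843 CPM untreated and between 3313 and 3323 treated in KP4, and to between 5886 and 6553 and between 5067 and 5163 in MiaPaca2. VIM and ZEB1 fell and CDH2 rose in both lines, and FN1 rose in MiaPaca2. The 5 fibroblast markers, mostly COL1A2, summed to between 72.5 and 123 CPM in untreated and between 217 and 229 in treated MiaPaca2, and to at most 10.8 CPM in KP4, while DCN and LUM were near 0, and the part of these shifts in the results was not tested. The defining epithelial genes EPCAM and CDH1 were below 1 CPM in both DMSO groups, and the keratin gene KRT19 averaged 3.25 CPM in KP4 DMSO against 177 in MiaPaca2 DMSO. The 3 acinar markers had 0 counts in all 12 libraries, which allows up to 0.107 to 0.148 CPM per library at 3 counts. Summed immune markers reached at most 5.98 CPM and endothelial markers at most 2.90 CPM, and the T cell gene CD3E had 0 counts. The share of counts from mitochondrial genes moved with treatment, from between 4.16% and 4.38% to between 5.48% and 5.75% in KP4 and from between 2.25% and 3.32% to between 4.02% and 4.25% in MiaPaca2. With mitochondrial genes left out of the library size, the counts of the 36 genes were 5 higher and 20 lower in KP4 and 4 higher and 28 lower in MiaPaca2. Of all 16115 genes tested in that setting, 3771 were higher and 4010 lower in KP4, and 5203 higher and 5142 lower in MiaPaca2. MiaPaca2 DMSO replicate 2 stood apart from the other libraries of its group, by chi-square over its degrees of freedom: 15.9 and 14.5 against the other 2, which gave 8.33 against each other. Pairs within the remaining groups gave 2.03 to 2.97. Most counts over the 36 genes and over the comparison lists that use this library are given with and without it, and the rest only with it. The library also enters the estimate of the spread that all groups share. Tests in KP4 and between the treated lines therefore depend on it too.

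Under trametinib 18 of the 36 genes fell in both lines, among them every gene of glucose uptake and lower glycolysis, and more of them fell in MiaPaca2 than in KP4. The summed level of the 36 genes went from 19159 ± 67.7 to 16896 ± 93.8 CPM (SD) in KP4, 0.882 times the DMSO level, and from 21886 ± 491 to 16006 ± 385 CPM in MiaPaca2, 0.731 times. GAPDH, ENO1 and PKM, the genes with the highest levels, make up most of these sums. In KP4 19 of the 36 genes were called lower and 5 higher, where 24.1% of all genes tested were lower and 23.9% higher, and their median log2 change was −0.20 against 0 over all genes. In MiaPaca2 27 were lower and 5 higher, where 29.7% of all genes were lower and 34.4% higher, with a median of −0.40 against 0.052. Without MiaPaca2 DMSO replicate 2 the MiaPaca2 counts were 28 lower and 5 higher.

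Of the 36 genes, 18 were lower in both lines, which held for 16.9% of all genes tested. They were 20 without MiaPaca2 DMSO replicate 2, against 17.1%. They were both glucose carriers, the hexokinases HK1 and HK2, PFKP, ALDOA, TPI1, all 6 genes of lower glycolysis, the lactate exporter SLC16A3, RPIA, PRPS2, GNPNAT1 and UAP1. PFKFB2 and PGLS were higher in both lines, as were 18.9% of all genes, and 2 were so without that library, against 19.0%. The lactate carrier SLC16A1 was the only gene of the 36 called in opposite directions, higher in KP4 and lower in MiaPaca2. A further 8 genes were lower in MiaPaca2 and not past the test in KP4: GPI, PFKM, ALDOC, LDHA, PGD, RPE, TALDO1 and PRPS1. LDHB, GFPT1 and PGM3 were higher in MiaPaca2 alone by this test, PFKL and TKT higher and PFKFB3 lower in KP4 alone, and PFKFB4 was past the test in neither line. A call in 1 line and not in the other is no test of a difference, and the difference of the responses was tested separately.

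**Figure D1:**
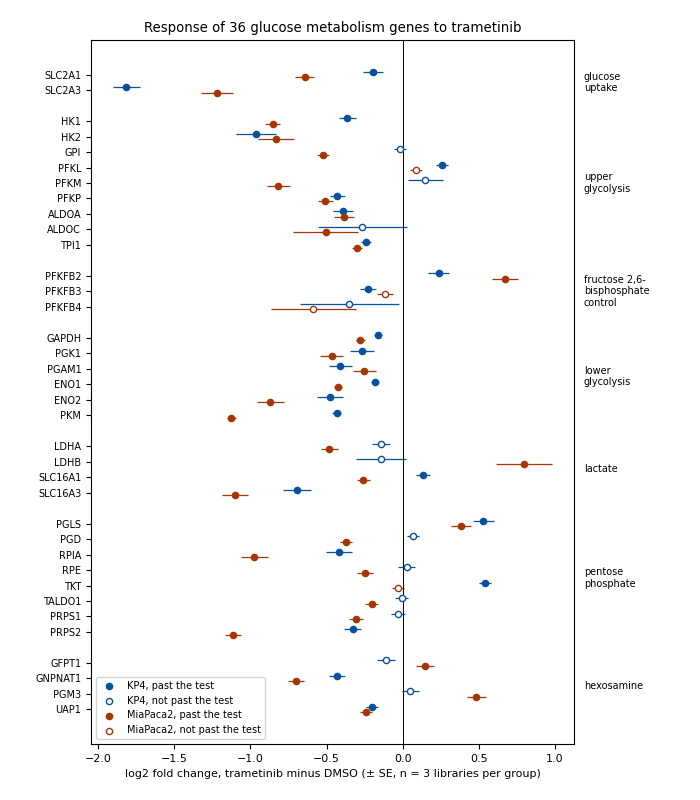
Log2 fold change of each of the 36 genes, trametinib minus DMSO, in KP4 (blue) and MiaPaca2 (red-brown). Points are the fitted value and bars the standard error with n = 3 libraries per group, filled points are past edgeR's test, and genes are ordered along the pathway. Most points lie left of 0, with SLC2A3 in KP4 the farthest at −1.81.

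Promoter sequences are shown for 3 of these genes, to show how differently their starts are built: HK2, which fell in both lines, and LDHA, which fell in MiaPaca2, each hold several matches to known motifs, and PKM, which fell in both lines, holds none in the stretch shown. They come from RefSeq promoter windows on GRCh38.p14, of which 33 of the 36 genes had at least 1 (there was no window for PFKFB2, SLC2A3 and SLC16A1). Each is the 250 bases before an annotated start, read 5′ to 3′ on the gene's strand. Capitals mark matches on either strand to CACGTG (the E-box bound by MYC and MAX), ACGTG or GCGTG (cores of the hypoxia response element), TGANTCA (AP-1) or CCGGAAG (ETS). CACGT and CACGC in capitals are ACGTG and GCGTG read on the other strand, and every CACGTG also holds ACGTG. The HK2 window lies at chr2:74834920-74835169 on the plus strand, that of LDHA at chr11:18394313-18394562 on the plus strand, and that of PKM at chr15:72231191-72231440 on the minus strand.
HK2: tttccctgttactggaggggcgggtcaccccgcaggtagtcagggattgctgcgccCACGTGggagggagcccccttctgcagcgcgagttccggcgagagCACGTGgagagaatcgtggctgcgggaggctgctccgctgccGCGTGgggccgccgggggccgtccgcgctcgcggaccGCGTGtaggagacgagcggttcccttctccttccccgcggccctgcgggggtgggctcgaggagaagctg
LDHA: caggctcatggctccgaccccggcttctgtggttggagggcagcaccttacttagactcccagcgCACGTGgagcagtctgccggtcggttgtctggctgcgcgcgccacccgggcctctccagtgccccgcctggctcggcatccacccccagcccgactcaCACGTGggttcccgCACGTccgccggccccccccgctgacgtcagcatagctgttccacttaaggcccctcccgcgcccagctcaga
PKM: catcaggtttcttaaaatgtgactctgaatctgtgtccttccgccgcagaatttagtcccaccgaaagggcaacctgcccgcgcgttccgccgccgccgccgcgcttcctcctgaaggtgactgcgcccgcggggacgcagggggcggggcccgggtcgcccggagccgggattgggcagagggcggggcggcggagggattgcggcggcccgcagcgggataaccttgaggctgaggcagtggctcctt
In HK2 the motif CACGTG starts 194 and 149 bases before the start site and GCGTG 107 and 70 bases before it. In LDHA CACGTG starts 185 and 87 bases before the start and a separate ACGTG 73 bases before it. HK2 and LDHA each have 1 more window upstream of another start, which holds ACGTG and GCGTG in HK2, and GCGTG and CCGGAAG in LDHA. The other HK2 window, chr2:74833877-74834126, covers the annotated 5′ end of the gene and holds no CACGTG. The HK2 window shown thus precedes a start inside the gene. Over full windows, which add 50 bases after the start, 6 of the 33 genes (18.2%) held CACGTG against 8.8% of 27305 genes with a window: ALDOA, ALDOC, GAPDH, HK2, LDHA and PFKFB3. ACGTG or GCGTG was found in 27 of 33 (81.8%) against 52.4% of all genes, PKM among them through the bases after its start. TGANTCA was found in 2 (6.1%) against 9.4%, and CCGGAAG in 6 (18.2%) against 12.2%. Counted by window, since a gene can have several, CACGTG was in 9.8% of 61 windows against 7.3% of all 35116, and ACGTG or GCGTG in 63.9% against 48.4%. A match is a description of the letters and says nothing of binding in these cells.

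Both glucose carriers fell in both lines, and SLC2A3 fell the most of all 36 genes in each. SLC2A3 (GLUT3, chr12:7919230-7936275) is a carrier with high affinity for glucose, and SLC2A1 (GLUT1, chr1:42925375-42959176) is the carrier of most cultured and proliferating cells. SLC2A3 stood at 197, 189 and 197 CPM in the KP4 DMSO libraries and at 52.0, 56.3 and 57.5 CPM under trametinib. It stood at 71.5, 65.0 and 49.7 CPM in MiaPaca2 DMSO and at 27.3, 25.4 and 27.3 CPM in MiaPaca2 trametinib. Treated and untreated libraries did not overlap in either line, and KP4 under trametinib came down to the range of untreated MiaPaca2. SLC2A3 fell by 1.81 ± 0.087 (edgeR adjusted p = 1.78e-10) on the log2 scale in KP4 and by 1.22 ± 0.11 (edgeR adjusted p = 8.91e-08) in MiaPaca2.

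SLC2A1 stood at 94.9, 84.3 and 96.0 CPM in KP4 DMSO and 80.7, 81.7 and 77.9 CPM under trametinib, a narrow gap between groups that did not overlap. In MiaPaca2 it went from 135, 109 and 123 to 81.8, 76.9 and 76.2 CPM. It fell by 0.64 ± 0.065 (edgeR adjusted p = 6.88e-09) in MiaPaca2 and by 0.20 ± 0.064 (edgeR adjusted p = 0.0144) in KP4. The KP4 call was lost when KP4 DMSO replicate 1 or 3 or KP4 trametinib replicate 1 or 3 was left out, with fitted changes of −0.17 (edgeR adjusted p = 0.0646), −0.16 (edgeR adjusted p = 0.0789), −0.18 (edgeR adjusted p = 0.0635) and −0.18 (edgeR adjusted p = 0.0612). The carriers differed between the lines in opposite directions: SLC2A3 fell further in KP4, with a difference in response (KP4 minus MiaPaca2) of −0.60 ± 0.14 (edgeR adjusted p = 0.00368), and SLC2A1 fell further in MiaPaca2, with a difference of 0.45 ± 0.091 (edgeR adjusted p = 0.000439).

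Other hexose carriers moved the other way. Of 8 further carriers listed, 5 had enough counts to be tested, and 4 of them rose in both lines, as did 18.9% of all genes tested. SLC2A12 (GLUT12) stood at 14.0, 14.3 and 15.9 CPM in KP4 DMSO and 89.1, 80.3 and 89.3 under trametinib, and at 10.6, 10.4 and 12.1 CPM untreated and 81.2, 77.6 and 81.5 CPM treated in MiaPaca2. It rose by 2.55 ± 0.069 (edgeR adjusted p = 1.45e-20) in KP4 and by 2.86 ± 0.075 (edgeR adjusted p = 2.4e-21) in MiaPaca2. SLC2A8 (GLUT8), a carrier found mostly on membranes inside the cell, went from 50.3, 52.7 and 53.8 to 241, 239.6 and 237 CPM in KP4 and from 12.5, 19.0 and 13.2 to 97.6, 89.6 and 93.1 CPM in MiaPaca2. It rose by 2.19 ± 0.069 (edgeR adjusted p = 3.06e-16) and 2.65 ± 0.089 (edgeR adjusted p = 2.8e-16). SLC2A6 rose by 0.79 in KP4 and 0.56 in MiaPaca2, and SLC2A10, at a mean of 10.4 CPM in its highest group, by 1.18 and 0.74. Treated and untreated libraries of these 4 genes did not overlap in either line, and the share of all genes without overlap was not counted. The insulin-responsive carrier SLC2A4 stayed near 1 CPM or below and was not past the test.

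**Figure D2:**
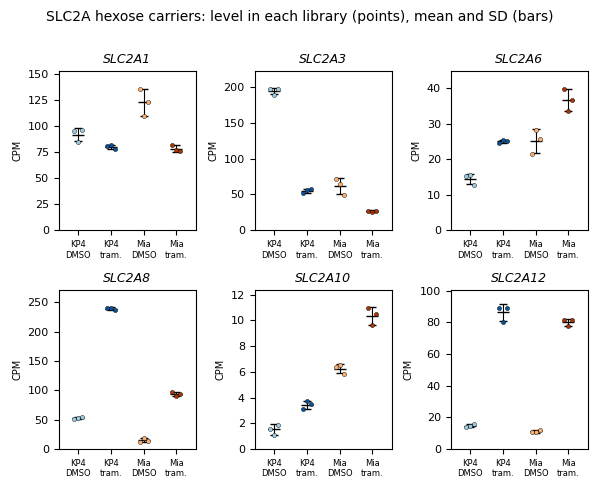
Level in CPM of 6 SLC2A hexose carriers in each library (points), with the mean and SD of each group of 3 (bars), for KP4 and MiaPaca2 (Mia) with DMSO or trametinib (tram.). SLC2A1 and SLC2A3 fell under trametinib in both lines, while SLC2A6, SLC2A8, SLC2A10 and SLC2A12 rose.

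Both hexokinases fell in both lines. HK1 is the widespread hexokinase, and HK2 is the form most often raised in tumours. HK2 (chr2:74833981-74893359) stood at 56.0, 51.9 and 51.3 CPM in KP4 DMSO and 24.7, 28.5 and 28.6 CPM under trametinib. MiaPaca2 libraries went from 118, 83.5 and 93.0 to 59.6, 49.5 and 56.1 CPM. The libraries did not overlap in either line, and HK2 fell by 0.96 ± 0.13 (edgeR adjusted p = 5.73e-05) in KP4 and 0.83 ± 0.12 (edgeR adjusted p = 4.25e-05) in MiaPaca2. The difference between those responses was −0.13 ± 0.17 (edgeR adjusted p = 0.614), and without MiaPaca2 DMSO replicate 1, the highest library, it was −0.28 (edgeR adjusted p = 0.0344). HK1 stood at 84.3, 86.2 and 85.7 CPM in KP4 DMSO and 65.9, 65.5 and 67.5 under trametinib. In MiaPaca2 HK1 went from 226, 187 and 209 to 115, 115 and 115 CPM, so its treated libraries lay far below the lowest untreated one. HK1 fell by 0.36 ± 0.056 (edgeR adjusted p = 5.75e-06) in KP4 and 0.85 ± 0.052 (edgeR adjusted p = 1.36e-13) in MiaPaca2, and the difference was 0.49 ± 0.077 (edgeR adjusted p = 1.37e-05). HK2 overlaps a divergent non-coding gene on the other strand, HK2-DT, with 1397 counts over all libraries against 17185 for HK2.

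The phosphofructokinases, which catalyse the committed step of glycolysis, differed in their calls: PFKP was lower in both lines, PFKL higher in KP4 and PFKM lower in MiaPaca2. PFKP, the platelet form, stood at 193, 206 and 192 CPM in KP4 DMSO and 144, 152 and 144 under trametinib, and at 299.8, 266 and 301 CPM untreated and 214, 200.0 and 196 CPM treated in MiaPaca2. It fell by 0.43 ± 0.049 (edgeR adjusted p = 5.56e-08) in KP4 and 0.51 ± 0.048 (edgeR adjusted p = 8.27e-10) in MiaPaca2, with no overlap of libraries. PFKL, the liver form, stood at 215, 224 and 220.4 CPM in KP4 DMSO and rose to 262, 269.8 and 257 CPM, by 0.26 ± 0.041 (edgeR adjusted p = 7.02e-06). In MiaPaca2 PFKL stood at 405, 416 and 451 CPM with DMSO and 458, 451 and 439.6 with trametinib, overlapping groups with a log2 change of 0.085 ± 0.039 (edgeR adjusted p = 0.0638). That change was past the test in 4 of 18 alternatives, among them without MiaPaca2 DMSO replicate 3, at 0.13 (edgeR adjusted p = 0.00344).

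PFKM, the muscle form, separated the lines the most. It stood at 14.0, 13.2 and 12.8 CPM in KP4 DMSO and 13.6, 16.8 and 14.0 under trametinib, overlapping groups with a log2 change of 0.15 ± 0.11 (edgeR adjusted p = 0.295). In MiaPaca2 it went from 101, 82.1 and 101 to 54.0, 57.1 and 50.6 CPM, and fell by 0.82 ± 0.074 (edgeR adjusted p = 1.19e-09). The difference in response was 0.97 ± 0.13 (edgeR adjusted p = 4.88e-06), the largest of the 36 genes. Every MiaPaca2 library, treated or not, lay above every KP4 library. PFKM overlaps SENP1 on the other strand, with 16245 counts against 12651 for PFKM, and the use of strand in counting is not given in the sources used here.

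Of the other upper enzymes, the isomerase GPI averaged 462 CPM in KP4 DMSO and 456 under trametinib, a log2 change of −0.016 ± 0.04 (edgeR adjusted p = 0.775). In MiaPaca2 GPI fell from 813 to 566 CPM, by 0.52 ± 0.04 (edgeR adjusted p = 1.55e-11), and the difference was 0.51 ± 0.057 (edgeR adjusted p = 1.03e-07). The aldolase ALDOA stood at 142, 127 and 132 CPM in KP4 DMSO and 104, 101 and 100.4 under trametinib, and went from 155, 156 and 191 to 128, 134 and 124 CPM in MiaPaca2. It fell by 0.39 ± 0.066 (edgeR adjusted p = 5.29e-05) and 0.38 ± 0.065 (edgeR adjusted p = 3.6e-05), with a difference of −0.0094 ± 0.093 (edgeR adjusted p = 0.964). A gene on the same strand with no symbol overlaps ALDOA and had 706 counts. TPI1, the triose phosphate isomerase, fell from 1015 to 859 CPM in KP4 (−0.24 ± 0.031) and from 1058 to 859 CPM in MiaPaca2 (−0.30 ± 0.031).

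ALDOC, the brain aldolase, was at a low level in all libraries. In KP4 it stood at 1.70, 2.02 and 2.22 CPM untreated and 1.86, 1.57 and 1.52 treated, and in MiaPaca2 at 6.89, 3.41 and 4.30 untreated and 3.82, 3.85 and 2.73 treated. Treated and untreated libraries overlapped in both lines. The log2 changes were −0.26 ± 0.29 (edgeR adjusted p = 0.488) in KP4 and −0.50 ± 0.21 (edgeR adjusted p = 0.0418) in MiaPaca2. The MiaPaca2 call was lost without MiaPaca2 DMSO replicate 1, at −0.16 (edgeR adjusted p = 0.514), and again when MiaPaca2 trametinib replicate 3 was left out, at −0.35 (edgeR adjusted p = 0.202). A gene without a symbol on the same strand took 688 counts against 876 for ALDOC.

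The PFKFB genes encode enzymes that make and break fructose 2,6-bisphosphate, the activator of phosphofructokinase, and they did not move together. PFKFB2 rose in both lines. It stood at 41.0, 38.8 and 36.6 CPM in KP4 DMSO and 45.5, 45.6 and 46.0 under trametinib, and at 18.1, 23.0 and 17.6 CPM untreated and 33.1, 30.4 and 30.1 CPM treated in MiaPaca2. PFKFB2 rose by 0.24 ± 0.071 (edgeR adjusted p = 0.00717) in KP4 and by 0.67 ± 0.086 (edgeR adjusted p = 1.58e-07) in MiaPaca2, with a difference of −0.44 ± 0.11 (edgeR adjusted p = 0.00308). Without KP4 DMSO replicate 3 its KP4 change was 0.19 (edgeR adjusted p = 0.0585), and the gene overlaps YOD1 on the other strand, which had 3705 counts against 10357.

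PFKFB3, the form with the strongest kinase activity, stood at 62.5, 61.0 and 64.1 CPM in KP4 DMSO and 53.4, 53.6 and 53.4 under trametinib, and fell by 0.23 ± 0.051 (edgeR adjusted p = 0.000634). In MiaPaca2 it stood at 72.7, 68.7 and 70.5 CPM untreated and 68.2, 63.7 and 63.8 CPM treated, a log2 change of −0.11 ± 0.051 (edgeR adjusted p = 0.0532) that was past the test in 6 of 18 alternatives: RLE scaling, mitochondrial genes left out of the library size, DESeq2, limma-voom, and without MiaPaca2 DMSO replicate 2 or MiaPaca2 trametinib replicate 1. Their adjusted p-values by these tools ran from 0.0112 to 0.0462. PFKFB4 was low and variable, at 11.4, 6.92 and 8.95 CPM in KP4 DMSO and 7.27, 7.66 and 6.45 under trametinib, and at 23.9, 13.3 and 12.2 CPM untreated and 13.4, 9.58 and 9.87 CPM treated in MiaPaca2. Its groups overlapped in both lines, with log2 changes of −0.35 ± 0.32 (edgeR adjusted p = 0.416) and −0.59 ± 0.28 (edgeR adjusted p = 0.0926). The MiaPaca2 value was past the test in 4 of 18 alternatives, among them without MiaPaca2 DMSO replicate 3, at −0.76 (edgeR adjusted p = 0.0359).

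All 6 genes of lower glycolysis fell in both lines. PKM, the pyruvate kinase of most tissues and the last step of glycolysis, fell the most in MiaPaca2. PKM (chr15:72199029-72231822) stood at 2093, 2079 and 2126 CPM in KP4 DMSO and 1539, 1555 and 1573 under trametinib. In MiaPaca2 it went from 3665, 3545 and 3768 to 1718, 1657 and 1654 CPM. The untreated MiaPaca2 libraries were the highest and the other groups lay well below them, with treated MiaPaca2 just above treated KP4. PKM fell by 0.43 ± 0.03 (edgeR adjusted p = 4.74e-12) in KP4 and by 1.13 ± 0.03 (edgeR adjusted p = 3.03e-21) in MiaPaca2, with a difference of 0.69 ± 0.042 (edgeR adjusted p = 1.32e-12). Counts per gene do not separate the alternative splice forms of PKM.

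ENO2, the neuronal enolase, stood at 49.5, 42.1 and 42.5 CPM in KP4 DMSO and 32.7, 32.0 and 31.6 under trametinib, and at 62.4, 52.9 and 46.2 CPM untreated and 29.9, 29.7 and 28.9 CPM treated in MiaPaca2. It fell by 0.48 ± 0.086 (edgeR adjusted p = 7.89e-05) in KP4 and 0.87 ± 0.088 (edgeR adjusted p = 1.26e-08) in MiaPaca2, and its difference was 0.39 ± 0.12 (edgeR adjusted p = 0.0155). LRRC23 on the same strand overlaps ENO2 and had 3292 counts against 12003. ENO1, the main enolase, stood at 3042, 3068 and 3055 CPM in KP4 DMSO and 2657, 2700.0 and 2711 under trametinib, and at 3833, 3716 and 3837 CPM untreated and 2882, 2810.1 and 2794 CPM treated in MiaPaca2. ENO1 fell by 0.18 ± 0.027 (edgeR adjusted p = 3.24e-06) in KP4 and 0.42 ± 0.027 (edgeR adjusted p = 3.99e-13) in MiaPaca2, with a difference of 0.24 ± 0.038 (edgeR adjusted p = 1.87e-05). Libraries of both enolases did not overlap in either line, and both fell further in MiaPaca2.

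GAPDH, often taken as an unchanging reference gene, fell from 8149 ± 30.1 to 7298 ± 30.2 CPM (SD) in KP4, by 0.16 ± 0.027 (edgeR adjusted p = 1.8e-05). In MiaPaca2 it fell from 6746 ± 102 to 5567 ± 179 CPM, by 0.28 ± 0.027 (edgeR adjusted p = 1.11e-09). The difference of 0.12 ± 0.038 (edgeR adjusted p = 0.0157) was lost without MiaPaca2 trametinib replicate 3, at 0.10 (edgeR adjusted p = 0.066). PGK1, the kinase of the step after GAPDH, fell by 0.27 ± 0.077 (edgeR adjusted p = 0.0127) in KP4 and 0.47 ± 0.077 (edgeR adjusted p = 0.000176) in MiaPaca2. Its difference of 0.20 ± 0.11 (edgeR adjusted p = 0.183) passed in 4 of 24 alternatives, among them without MiaPaca2 DMSO replicate 2, at 0.29 (edgeR adjusted p = 0.00244). PGAM1, the mutase of the next step, fell by 0.41 ± 0.076 (edgeR adjusted p = 6.72e-05) in KP4 and 0.25 ± 0.074 (edgeR adjusted p = 0.00454) in MiaPaca2. PGAM1 and GAPDH have pseudogenes named for them in the table, 13 and 65, which held 3.82% and 0.261% as many counts as their genes, so their levels are uncertain by the reads that could match either copy.

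LDHA encodes the muscle-type subunit of lactate dehydrogenase and LDHB the heart-type subunit. LDHA stood at 895, 840.4 and 842 CPM in KP4 DMSO and 777, 777 and 783 under trametinib, groups that did not overlap, with a log2 change of −0.14 ± 0.058 (edgeR adjusted p = 0.0579) that missed the threshold and was past it in 6 of 18 alternatives. The main fit shares 1 estimate of the spread with the MiaPaca2 libraries. Fitted on the KP4 libraries alone, LDHA changed by −0.13 (edgeR adjusted p = 2.68e-09). In MiaPaca2 it went from 1113, 890.2 and 982 to 728, 717 and 695 CPM and fell by 0.48 ± 0.058 (edgeR adjusted p = 3.18e-06). The difference was 0.34 ± 0.082 (edgeR adjusted p = 0.00466). LDHB was low in both lines, at 8.56, 5.63 and 5.30 CPM in KP4 DMSO and 5.20, 6.05 and 6.34 under trametinib, and 3.18, 4.56 and 4.39 and 6.90, 7.75 and 6.45 in MiaPaca2. It rose in MiaPaca2 by 0.80 ± 0.18 (edgeR adjusted p = 0.00053), with no overlap, and its log2 change in KP4 was −0.14 ± 0.16 (edgeR adjusted p = 0.509) with overlapping libraries. The difference of −0.94 ± 0.25 (edgeR adjusted p = 0.00397) was the lowest of the 36 genes. LDHB had 1758 counts over all 12 libraries, and pseudogenes named for LDHA and LDHB held 1.83% and 1.88% as many counts as their genes.

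SLC16A3 (MCT4), a carrier that exports lactate from glycolytic cells, stood at 87.3, 79.9 and 88.5 CPM in KP4 DMSO and 53.4, 51.6 and 53.1 under trametinib. MiaPaca2 libraries went from 207, 159 and 203 to 89.8, 93.3 and 82.7 CPM. MiaPaca2 under trametinib came down to the level of untreated KP4. SLC16A3 fell by 0.69 ± 0.091 (edgeR adjusted p = 1.67e-05) in KP4 and 1.10 ± 0.084 (edgeR adjusted p = 2.43e-08) in MiaPaca2. Its difference of 0.41 ± 0.12 (edgeR adjusted p = 0.0195) was lost without MiaPaca2 DMSO replicate 1 or 3, at 0.34 (edgeR adjusted p = 0.0659) and 0.36 (edgeR adjusted p = 0.0611). CSNK1D on the other strand overlaps SLC16A3 and had 81179 counts against 30529.

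SLC16A1 (MCT1), a carrier that moves lactate in either direction, stood at 143, 138 and 145 CPM in KP4 DMSO and 158, 155 and 156 under trametinib. In MiaPaca2 SLC16A1 went the other way, from 244, 219 and 219 to 194, 189 and 188 CPM. Libraries did not overlap in either line. It rose by 0.13 ± 0.044 (edgeR adjusted p = 0.0136) in KP4 and fell by 0.26 ± 0.043 (edgeR adjusted p = 1.09e-05) in MiaPaca2, with a difference of 0.39 ± 0.062 (edgeR adjusted p = 1.57e-05). The KP4 call was lost without KP4 DMSO replicate 2, at 0.11 (edgeR adjusted p = 0.0835).

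The 8 pentose phosphate genes had a higher summed level with trametinib in KP4 and a lower one in MiaPaca2. Their summed level went from 1118 ± 9.46 to 1281 ± 2.16 CPM (SD) in KP4, 1.15 times the DMSO level, and went from 1582 ± 63.4 to 1319 ± 6.37 CPM in MiaPaca2, 0.834 times. TKT alone went from a mean of 379 to 551 CPM in KP4, a larger step than that of the sum. The higher sum in KP4 therefore rests on TKT, and the other 7 genes together did not rise there. In KP4 2 genes rose and 2 fell of 8, shares close to the 23.9% and 24.1% of all genes, and in MiaPaca2 1 rose and 6 fell, where 34.4% and 29.7% of all genes did. For 7 of the 8 the response was higher in KP4 than in MiaPaca2 by the test of the difference, against 16.0% of all genes, and for 0 lower, against 19.7%. All of these counts were the same without MiaPaca2 DMSO replicate 2.

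TKT, the transketolase that links the pathway back to glycolysis, stood at 377, 369.7 and 389 CPM in KP4 DMSO and 547, 549.6 and 555 under trametinib, and rose by 0.54 ± 0.037 (edgeR adjusted p = 3.78e-12). In MiaPaca2 TKT stood at 556, 557 and 607 CPM untreated and 563, 552 and 568 CPM treated, overlapping groups with a log2 change of −0.03 ± 0.037 (edgeR adjusted p = 0.485). Treated KP4 libraries came close to both MiaPaca2 groups, and the difference in response was 0.57 ± 0.052 (edgeR adjusted p = 2.68e-09). PGLS, the lactonase of the oxidative branch, rose in both lines. It stood at 40.2, 46.7 and 46.5 CPM in KP4 DMSO and 64.6, 61.7 and 66.5 under trametinib, and at 65.9, 70.3 and 70.6 CPM untreated and 98.9, 84.4 and 85.7 CPM treated in MiaPaca2. PGLS rose by 0.53 ± 0.067 (edgeR adjusted p = 2.57e-07) and 0.38 ± 0.063 (edgeR adjusted p = 8.69e-06), with no overlap of libraries.

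PGD, which releases carbon dioxide and NADPH in the oxidative branch, averaged 176 and 184 CPM in KP4, a log2 change of 0.069 ± 0.04 (edgeR adjusted p = 0.171). PGD fell by 0.37 ± 0.04 (edgeR adjusted p = 9.45e-09) in MiaPaca2, and its difference was 0.44 ± 0.057 (edgeR adjusted p = 9.24e-07). The sugar interconverting enzymes RPE and TALDO1 fell in MiaPaca2 by 0.25 ± 0.053 (edgeR adjusted p = 0.000263) and 0.20 ± 0.044 (edgeR adjusted p = 0.00025). Their log2 changes in KP4 were 0.026 ± 0.053 and −0.0074 ± 0.044, neither past the test. RPIA, the ribose phosphate isomerase, stood at 26.2, 30.6 and 28.1 CPM in KP4 DMSO and 21.2, 23.0 and 19.5 under trametinib, and at 42.1, 35.0 and 40.5 CPM untreated and 19.0, 19.1 and 21.7 CPM treated in MiaPaca2. It fell by 0.42 ± 0.086 (edgeR adjusted p = 0.000237) in KP4 and by 0.97 ± 0.087 (edgeR adjusted p = 2.54e-10) in MiaPaca2, with a difference of 0.56 ± 0.12 (edgeR adjusted p = 0.000765).

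PRPS1 and PRPS2 make phosphoribosyl pyrophosphate, the activated ribose for nucleotide synthesis. PRPS2 stood at 132, 136 and 130.0 CPM in KP4 DMSO and 104, 109 and 103 under trametinib. PRPS2 in MiaPaca2 went from 261, 218 and 257 to 111, 114 and 114 CPM, from well above both KP4 groups to just above treated KP4. PRPS2 fell by 0.33 ± 0.054 (edgeR adjusted p = 1.43e-05) in KP4 and 1.12 ± 0.053 (edgeR adjusted p = 9.27e-16) in MiaPaca2, with a difference of 0.79 ± 0.076 (edgeR adjusted p = 7.56e-09). PRPS1 stood at 138, 146 and 142 CPM in KP4 DMSO and 138, 138 and 141 under trametinib, overlapping groups with a log2 change of −0.031 ± 0.045 (edgeR adjusted p = 0.612). It went from 147, 131 and 142 to 109.7, 115 and 115 CPM in MiaPaca2 and fell by 0.31 ± 0.046 (edgeR adjusted p = 2.19e-06).

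In the hexosamine pathway the acetyltransferase GNPNAT1 and the pyrophosphorylase UAP1 fell in both lines, while PGM3 and GFPT1 were higher in MiaPaca2. GNPNAT1 stood at 97.0, 95.6 and 97.6 CPM in KP4 DMSO and 71.9, 72.5 and 70.9 under trametinib, and at 109, 99.1 and 95.7 CPM untreated and 63.9, 60.1 and 62.7 CPM treated in MiaPaca2. It fell by 0.43 ± 0.05 (edgeR adjusted p = 7.85e-08) and 0.70 ± 0.052 (edgeR adjusted p = 7.48e-12), with no overlap of libraries. UAP1, the last step, fell by 0.20 ± 0.038 (edgeR adjusted p = 0.000102) in KP4 and 0.24 ± 0.039 (edgeR adjusted p = 5.81e-06) in MiaPaca2. PGM3, the mutase between them, rose from 36.4 to 50.9 CPM in MiaPaca2, by 0.48 ± 0.06 (edgeR adjusted p = 9.45e-08), with a log2 change of 0.049 ± 0.056 (edgeR adjusted p = 0.503) in KP4. DOP1A and RWDD2A on the other strand overlap PGM3 and had 6129 and 2423 counts against 13858. GFPT1, the rate-limiting first enzyme, rose by 0.15 ± 0.061 (edgeR adjusted p = 0.0405) in MiaPaca2 with overlapping libraries, and its log2 change in KP4 was −0.11 ± 0.058 (edgeR adjusted p = 0.129). The GFPT1 call was lost in 8 of 18 alternatives, RLE scaling and DESeq2 among them. It was also lost without MiaPaca2 DMSO replicate 3, trametinib replicate 1 or trametinib replicate 3, at 0.075 (edgeR adjusted p = 0.278), 0.12 (edgeR adjusted p = 0.135) and 0.14 (edgeR adjusted p = 0.101).

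**Figure D3:**
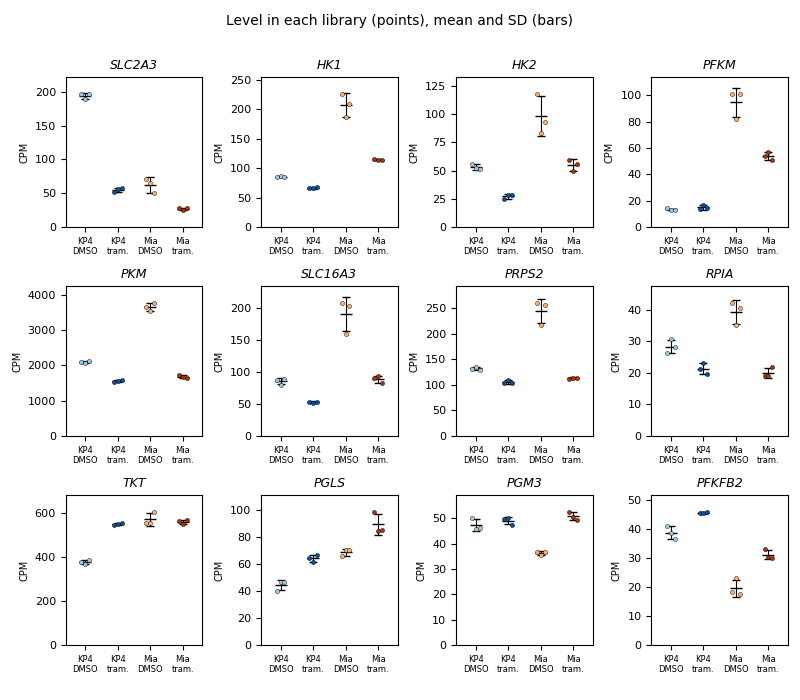
Level in CPM of 12 of the 36 genes in each library (points), with the mean and SD of each group of 3 libraries (bars), for KP4 and MiaPaca2 (Mia) with DMSO or trametinib (tram.). All vertical axes start at 0. SLC2A3 is highest in untreated KP4, PKM and PRPS2 are highest in untreated MiaPaca2, and TKT is lowest in untreated KP4.

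The balance between related forms was described as the share of 1 gene in the summed level of its set, with levels divided by exon length so that genes could be compared. There were 9 sets in 2 lines, 18 comparisons in all, and the smallest p that an exact permutation test of 3 libraries against 3 can give is 0.1, so no share could pass a threshold of 0.05. The share of SLC2A3 in SLC2A1 and SLC2A3 went from 68.3% ± 1.07 to 41.2% ± 1.65 (SD) in KP4, and from 34.0% ± 4.36 to 25.7% ± 0.868 in MiaPaca2. By these levels KP4 held more SLC2A3 than SLC2A1 with DMSO and less with trametinib. The share of HK2 in both hexokinases went from 32.8% ± 1.31 to 24.4% ± 1.46 in KP4, without overlap, and stood at 27.0% ± 1.79 and 27.4% ± 1.87 in MiaPaca2, with overlap. That of SLC16A3 in both lactate carriers went from 35.1% ± 0.698 to 23.4% ± 0.202 in KP4 and from 42.8% ± 3.02 to 29.6% ± 1.24 in MiaPaca2.

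PFKP took 40.3% ± 0.633 of the phosphofructokinase level in KP4 DMSO and 29.6% ± 0.267 under trametinib, and 31.9% ± 1.33 and 24.8% ± 0.559 in MiaPaca2. PRPS2 went from 45.8% ± 0.5 to 40.7% ± 1.00 of its pair in KP4 and from 61.2% ± 1.06 to 47.5% ± 0.27 in MiaPaca2. ENO2 made up 1.10% ± 0.106 and 0.9% ± 0.0252 of the enolase level in KP4, and 1.07% ± 0.158 and 0.787% ± 0.00966 in MiaPaca2. LDHB made up 1.39% ± 0.323 and 1.39% ± 0.135 of the lactate dehydrogenase level in KP4, with overlap, and went from 0.77% ± 0.215 to 1.81% ± 0.151 in MiaPaca2, without. Treated and untreated shares of ALDOC in the aldolases and of PFKFB3 with PFKFB4 overlapped in both lines. In 12 of the 18 comparisons the 3 treated and the 3 untreated libraries did not overlap. Such shares were not counted for other sets of genes, so it is not known whether this number is unusual.

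**Figure D4:**
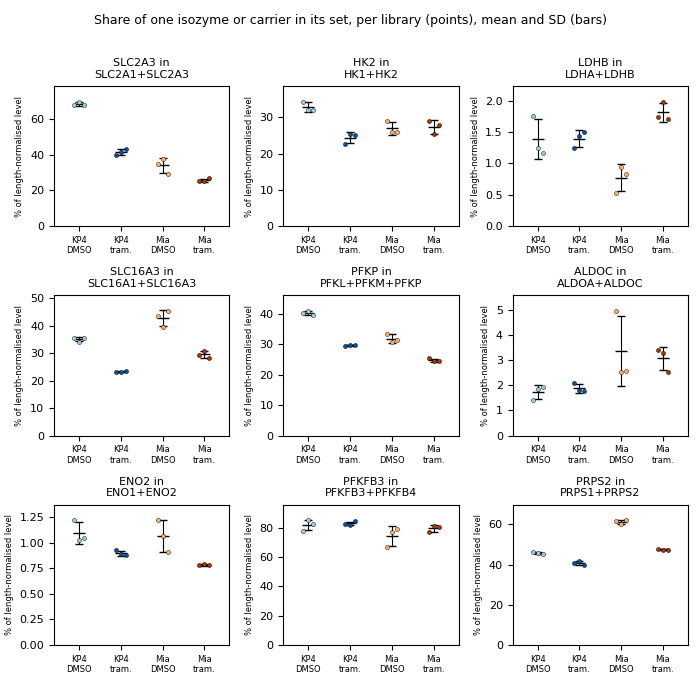
Share of 1 form in the length-normalised level of its set, in percent, in each library (points) with the mean and SD of each group of 3 (bars), for 9 sets of related genes. The share of SLC2A3 went from a mean of 68.3% to 41.2% in KP4, and the shares of SLC16A3 and PFKP were lower with trametinib in both lines.

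The response itself differed between the lines for 25 of the 36 genes. The difference, KP4 minus MiaPaca2, was called higher for 20, where 16.0% of all genes were, and lower for 5, where 19.7% were, with a median of 0.24 against −0.052 over all genes. Without MiaPaca2 DMSO replicate 2 the counts were 22 and 5. The 20 were SLC2A1, 4 of upper glycolysis (HK1, GPI, PFKL and PFKM), 4 of lower glycolysis (GAPDH, ENO1, ENO2 and PKM), LDHA and both SLC16A carriers, the 7 pentose phosphate genes other than PGLS, and GNPNAT1. The 5 were SLC2A3, PFKFB2, LDHB, GFPT1 and PGM3. Of the 20, 10 fell in KP4 (SLC2A1, HK1, GAPDH, ENO1, ENO2, PKM, SLC16A3, RPIA, PRPS2 and GNPNAT1), TKT, PFKL and SLC16A1 rose there, and 7 were not past the test in KP4. The difference for PFKL, 0.18 ± 0.057 (edgeR adjusted p = 0.0169), was lost without KP4 DMSO replicate 1, KP4 trametinib replicate 2 or MiaPaca2 trametinib replicate 3, at 0.16 (edgeR adjusted p = 0.054), 0.16 (edgeR adjusted p = 0.0584) and 0.16 (edgeR adjusted p = 0.0532). That for TALDO1, 0.20 ± 0.062 (edgeR adjusted p = 0.015), was lost without MiaPaca2 trametinib replicate 3, at 0.18 (edgeR adjusted p = 0.0517). For GFPT1 the difference of −0.26 ± 0.085 (edgeR adjusted p = 0.02) was lost in 4 leave-one-out fits, at −0.23 (edgeR adjusted p = 0.0648) without KP4 DMSO replicate 2, −0.19 (edgeR adjusted p = 0.139) without KP4 trametinib replicate 1, −0.19 (edgeR adjusted p = 0.0665) without MiaPaca2 DMSO replicate 3 and −0.23 (edgeR adjusted p = 0.0577) without MiaPaca2 trametinib replicate 1. The GFPT1 difference was also lost under RLE scaling, at −0.21 (edgeR adjusted p = 0.0546), and with DESeq2, at −0.21 (DESeq2 adjusted p = 0.0602). Leaving out MiaPaca2 DMSO replicate 2 brought PFKP past the test, at 0.14 (edgeR adjusted p = 0.0434), and leaving out KP4 trametinib replicate 1 brought TPI1 past it, at 0.13 (edgeR adjusted p = 0.0471).

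Before treatment most of these genes were lower in KP4 than in MiaPaca2. With DMSO 27 of the 36 were lower in KP4, where 31.2% of all genes were, and 6 higher, where 32.0% were, with a median difference of −0.38 against 0.025 over all genes. Without MiaPaca2 DMSO replicate 2 the counts were 26 lower and 6 higher. The 6 higher in KP4 were SLC2A3, PFKFB2, GAPDH, LDHB, GFPT1 and PGM3. PFKM was 7.10 times as high in MiaPaca2 as in KP4 (−2.83 ± 0.089, edgeR adjusted p = 4.6e-18), and SLC2A3 was 3.13 times as high in KP4 (1.64 ± 0.087, edgeR adjusted p = 2.74e-10). The next largest differences were those of ALDOC at −1.30 ± 0.23 (edgeR adjusted p = 3.22e-05), HK1 at −1.28 ± 0.053 (edgeR adjusted p = 5.68e-17), SLC16A3 at −1.15 ± 0.084 (edgeR adjusted p = 1.39e-08) and PFKFB2 at 0.98 ± 0.082 (edgeR adjusted p = 8.41e-11). The hexosamine gene UAP1, at −0.10 ± 0.038 (edgeR adjusted p = 0.0275), lost its call in 5 of 18 alternatives, among them without KP4 DMSO replicate 1, KP4 DMSO replicate 3 or MiaPaca2 DMSO replicate 2, at −0.087 (edgeR adjusted p = 0.101), −0.082 (edgeR adjusted p = 0.124) and −0.073 (edgeR adjusted p = 0.0732). PGAM1 lost it without KP4 DMSO replicate 2, at −0.17 (edgeR adjusted p = 0.0694), and ENO2 without MiaPaca2 DMSO replicate 1, at −0.15 (edgeR adjusted p = 0.0724). PFKFB4 lost it without KP4 DMSO replicate 2 or 3, at −0.70 (edgeR adjusted p = 0.0674) and −0.85 (edgeR adjusted p = 0.0593), and TPI1 gained it in 6 of 18 alternatives, among them without MiaPaca2 DMSO replicate 3, at −0.073 (edgeR adjusted p = 0.04).

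Under trametinib the lines lay closer together. With the drug 17 of the 36 genes were lower in KP4, where 29.8% of all genes were, and 5 higher, where 26.5% were, with a median difference of −0.10 against −0.0070. The absolute difference between the lines was smaller with trametinib than with DMSO for 29 of the 36 genes (80.6%), as it was for 61.5% of the 16133 genes tested. Its median went from 0.50 to 0.27 for the 36 genes and from 0.40 to 0.31 for all genes. Among genes called between the untreated lines, which were thereby chosen for a large gap with DMSO, the gap was smaller with trametinib for 28 of 33 (84.8%) and for 77.3% of 10195 genes. Without MiaPaca2 DMSO replicate 2 the gap was smaller for 30 of 36 (83.3%) against 63.6% of all genes, and for 28 of 32 (87.5%) against 79.4% of genes called between the untreated lines. PRPS2 went from −0.89 ± 0.052 to −0.10 ± 0.055 (KP4 minus MiaPaca2), TKT from −0.60 ± 0.037 to −0.028 ± 0.037 and RPIA from −0.47 ± 0.08 to 0.088 ± 0.093. PKM went from −0.80 ± 0.03 to −0.11 ± 0.03, and its call with trametinib was lost without KP4 trametinib replicate 1, at −0.059 (edgeR adjusted p = 0.167). Upper glycolysis differed in both settings, with 8 of 9 genes lower in KP4 both with DMSO and with trametinib, TPI1 being the exception. Of all genes tested, 31.2% were lower in KP4 with DMSO and 29.8% with trametinib. The share of all genes lower in both settings was not counted, so it is not known whether 8 of 9 is unusual. With trametinib PFKM had the widest gap of the 9, at −1.86 ± 0.092 (edgeR adjusted p = 2.73e-14), and HK2 was at −1.02 ± 0.13 (edgeR adjusted p = 2.91e-05). The 5 higher in KP4 were SLC2A3, PFKFB2, GAPDH, PRPS1 and GNPNAT1. The calls of PGK1 (−0.22), ENO1 (−0.073) and PGD (−0.10) with trametinib were each lost in 4 to 6 leave-one-out fits, with edgeR adjusted p-values of 0.0556 to 0.567, and those of ENO1 and PGD also under RLE scaling, at −0.057 (edgeR adjusted p = 0.0936) and −0.084 (edgeR adjusted p = 0.0809). Over all 18 alternatives, other scalings and filters and DESeq2 among them, PGK1 lost its call in 6, ENO1 in 9 and PGD in 11. LDHA, at 0.13 ± 0.058 (edgeR adjusted p = 0.0793), was past the test in 9 of 18 alternatives, without KP4 trametinib replicate 1 among them. With only the libraries compared in the fit it was at 0.13 (edgeR adjusted p = 1.69e-07).

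**Figure D5:**
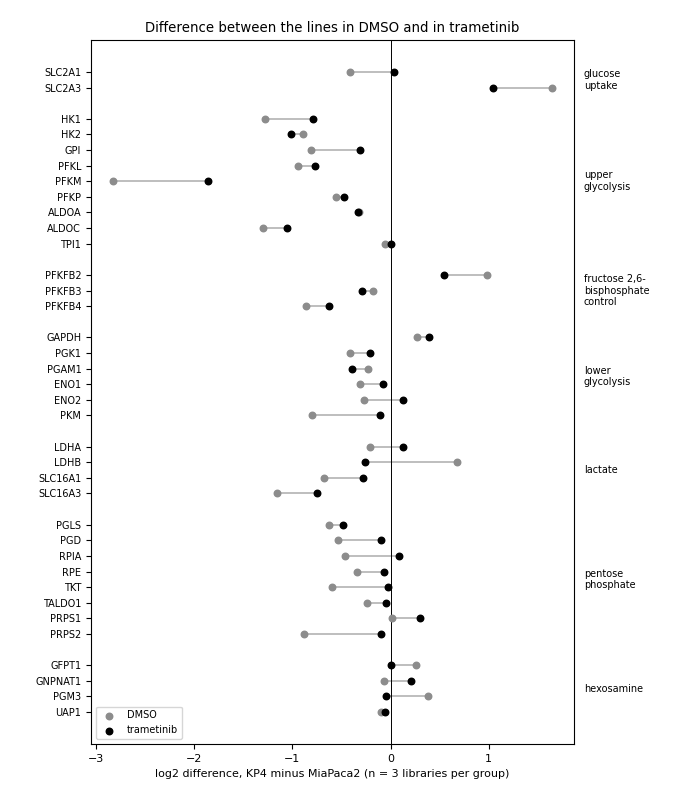
Difference between the lines, KP4 minus MiaPaca2 on the log2 scale, for each of the 36 genes with DMSO (grey) and with trametinib (black), n = 3 libraries per group. For 29 of the 36 genes the black point lies nearer to 0 than the grey point, PFKM is the farthest from 0 in both, and SLC2A3 is the farthest on the KP4 side.

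Levels per kilobase of exon rank the genes against each other only roughly. How reads shared with overlapping genes or pseudogenes were counted is not known, so ranks of genes such as ALDOA and PGAM1 are uncertain. In KP4 DMSO GAPDH was the highest at 3664 CPM per kilobase, followed by ENO1 at 1271, PKM at 634, TPI1 at 467 and LDHA at 289. MiaPaca2 DMSO had the same order, with 3033, 1579, 1105, 487 and 335 CPM per kilobase. ALDOC was the lowest in KP4 DMSO at 0.972, and PFKFB2 in MiaPaca2 DMSO at 2.14. LDHA exceeded LDHB in KP4 DMSO by 289 to 4.10. Among hexose carriers SLC2A3 led in KP4 DMSO at 49.6 CPM per kilobase, and with trametinib SLC2A8 led at 109.9, above SLC2A1 at 20.1, SLC2A12 at 19.3 and SLC2A3 at 14.1. In MiaPaca2 DMSO SLC2A1 led at 30.7, and with trametinib SLC2A8 led there too at 42.9, above SLC2A1 at 19.7 and SLC2A12 at 17.9.

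Beside the 36 genes, 60 others of the same pathways were listed for comparison, of which 41 had enough counts to be tested. In KP4 15 of the 41 rose and 7 fell, and in MiaPaca2 16 rose and 11 fell, where 23.9% and 24.1% of all genes rose and fell in KP4 and 34.4% and 29.7% in MiaPaca2. Leaving out MiaPaca2 DMSO replicate 2 gave counts of 15 and 8 in KP4 and 16 and 11 in MiaPaca2. Of 10 genes tested around the hexosamine pathway, 5 were higher and 1 lower in KP4, and 5 higher and 3 lower in MiaPaca2, with median log2 changes of 0.13 and 0.20. The same 5 of these 10 were higher in both lines, as were 18.9% of all genes tested. UAP1L1, a relative of UAP1, rose by 1.15 in KP4 and 0.83 in MiaPaca2, and the deacetylase AMDHD2 by 0.76 and 0.81. The kinase NAGK rose by 0.25 and 1.09, the deaminase GNPDA1 by 0.48 and 0.52, and OGA, which removes O-linked N-acetylglucosamine, by 0.31 and 0.36. AMDHD2 and GNPDA1 act in the breakdown direction and NAGK in salvage. GFPT2, a relative of GFPT1, fell in KP4 by 1.04 ± 0.15 (edgeR adjusted p = 3.19e-06) and stood at 0.03 ± 0.12 (edgeR adjusted p = 0.851) in MiaPaca2. GNE and NANS, which make sialic acid, fell in MiaPaca2 by 1.00 and 0.26, as did GNPDA2 by 0.33.

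LDHD, which acts on D-lactate, had the largest change of the 41, from 0.119, 0.0777 and 0.107 CPM in KP4 DMSO to 1.16, 1.08 and 1.37 under trametinib, and from 4.50, 3.28 and 3.19 to 14.1, 13.1 and 10.4 CPM in MiaPaca2. It rose by 3.51 ± 0.55 (edgeR adjusted p = 5.61e-06) in KP4, where the DMSO group held 8 counts in all, and by 1.76 ± 0.15 (edgeR adjusted p = 3.93e-11) in MiaPaca2. The lactate carrier SLC16A7 rose in both lines at no more than a mean of 1.74 CPM (0.98 and 0.73). In MiaPaca2 the carrier partner BSG fell by 0.27 and EMB rose by 0.55. H6PD, which feeds a pentose phosphate branch in the endoplasmic reticulum, rose by 0.69 ± 0.041 (edgeR adjusted p = 1.98e-13) in KP4 and 0.55 ± 0.04 (edgeR adjusted p = 6.6e-12) in MiaPaca2, and the sedoheptulose kinase SHPK fell by 0.84 and 0.84. PGM2 fell in MiaPaca2 by 0.15. In glycogen metabolism the phosphorylases PYGB and PYGL fell in both lines, PYGB from 452, 466 and 456 to 273, 260.0 and 261 CPM in KP4 and from 1045, 1005 and 1097 to 422, 413 and 408 CPM in MiaPaca2. PYGL fell by 0.13 and 0.23, PGM1 rose by 0.31 and 0.42, and the branching enzyme GBE1 rose in KP4 by 0.19. PYGB fell by 0.79 ± 0.037 (edgeR adjusted p = 1.82e-15) in KP4 and 1.34 ± 0.037 (edgeR adjusted p = 4.87e-21) in MiaPaca2. Of gluconeogenesis, PCK2 and G6PC3 were the genes tested, and both fell in both lines, PCK2 by 0.26 and 0.82 and G6PC3 by 0.17 and 0.19. Among other glycolysis genes ENO3 fell in KP4 by 0.67, and in MiaPaca2 HKDC1 fell by 0.81 and ADPGK rose by 0.24.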

How the data were processed

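RNA of 12 libraries, 3 for each of 4 groups set by the sample labels, was extracted with the PureLink RNA Mini Kit, and its messenger RNA was sequenced from libraries of the Tecan Universal mRNA Plus kit for Illumina machines, per the labels' protocols. The authors deposited whole-number counts per gene, not normalized. The tools STAR and DESeq2 and the build GRCh38, also written hg38, are named in the submitters' processing notes. How reads were counted, on which annotation, with or without strand and with what rule for reads that match several places, is not given in the sources used here. All 58735 identifiers of the table were found in GENCODE 29, which gave positions, gene types and exon lengths, and 58207 had a current symbol. There were 0 lines without a gene and 0 columns without a sample. No pair of libraries agreed within sampling noise, so all were kept.

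In edgeR 4.0.16 under R 4.3.3, filterByExpr removed genes with low counts and TMM scaled the libraries. The quasi-likelihood test used 1 mean per group over all 12 libraries, robust shrinkage and no covariate, and was tested on simulated data. Its contrasts were trametinib minus DMSO in each line, the difference of these responses, and KP4 minus MiaPaca2 with DMSO and with trametinib. Standard errors are the absolute log2 fold change divided by the root of the F statistic. Libraries of a group varied by 5.47% beyond counting (the biological coefficient of variation), 1 value estimated over all 12 libraries. By chi-square over its degrees of freedom, the spread was wider in MiaPaca2 DMSO than in the other groups. Floors of 3 counts cover counting error only. Shares of related forms used levels divided by exon length. Alternatives were other scalings and filters, DESeq2 1.42.0, limma-voom (limma 3.58.1), no robust shrinkage, only the libraries compared, a replicate block, pseudogene reads added, each library left out, and, chosen after seeing the data, the earlier quasi-likelihood method of edgeR.

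All 36 genes may be named. Values in each library are given for the 8 largest changes past the test in each treatment contrast, the 6 largest in the difference and between untreated lines, and the genes of the related sets. Of the other pathway genes, hypoxia targets and regulators, the rule names the 3 largest changes of each list and the members of any count of 5 or fewer. The genes, lists and tests were chosen with earlier results of these data known. The values of 1 gene counted among the other pathway genes are not reported here.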

Additional observations from a re-analysis of the deposited data

Results flagged for a closer look

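For 25 genes the response to trametinib differed between KP4 and MiaPaca2 by edgeR's test of the difference itself. The log2 difference, KP4 response minus MiaPaca2 response, was above 0 for 20 of them. Of all genes tested, 16.0% were called higher in this difference and 19.7% lower. In glucose uptake and upper glycolysis the differences were SLC2A1 0.45, HK1 0.49, GPI 0.51, PFKL 0.18 and PFKM 0.97. Those of lower glycolysis and lactate handling were GAPDH 0.12, ENO1 0.24, ENO2 0.39, PKM 0.69, LDHA 0.34, SLC16A1 0.39 and SLC16A3 0.41. For the pentose phosphate and hexosamine genes they were PGD 0.44, RPIA 0.56, RPE 0.27, TKT 0.57, TALDO1 0.20, PRPS1 0.28, PRPS2 0.79 and GNPNAT1 0.27. The difference was below 0 for the other 5, with SLC2A3 −0.60, PFKFB2 −0.44, LDHB −0.94, GFPT1 −0.26 and PGM3 −0.44. SLC16A1 is the gene among them with calls in opposite directions, 0.13 in KP4 and −0.26 in MiaPaca2. PFKM and TKT were among several with a change called in only 1 line, −0.82 in MiaPaca2 for PFKM and 0.54 in KP4 for TKT. PFKFB2 rose in both lines and SLC2A3 fell in both, PFKFB2 by more in MiaPaca2 and SLC2A3 by more in KP4.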

How the results depend on the processing

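The counts of the 36 genes called higher or lower stayed within 1.5 times their reported value under every alternative run, and no gene past the test changed sign. With trametinib against DMSO the counts were 4 to 6 higher and 18 to 22 lower in KP4 and 4 to 6 higher and 26 to 28 lower in MiaPaca2, each over 18 alternatives. The difference in response gave 17 to 22 higher and 4 to 6 lower over 24 alternatives. Between untreated lines they were 6 higher and 25 to 28 lower, and between treated lines 5 to 6 higher and 13 to 20 lower. Shares of related forms without overlap numbered 12 to 13 of 18. With the replicate block, KP4 gave 5 higher and 20 lower and MiaPaca2 5 and 28, the difference 21 and 5, untreated lines 6 and 27, and treated lines 6 and 18. Deviations of libraries with the same number correlated at −0.024 to 0.033, not every library correlated best with its own number, and the labels tie the numbers to nothing shared, so the numbers were not taken to pair the samples. LDHA in KP4 (−0.14 ± 0.058) was past the test in 6 of its alternatives, and ALDOC and GFPT1 in MiaPaca2 lost their calls in 7 and 8. The earlier quasi-likelihood method, added after seeing the data, changed 1 of 180 calls of single genes, and adding pseudogene reads changed 0. The number of libraries, 3 per group, and the low counts of ALDOC, LDHB and PFKFB4 limit the precision. When a library was left out, its group kept 2.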

Other observations

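Targets of hypoxia-inducible factors outside glycolysis moved both ways. Of 18 listed, 17 were tested, with 3 higher and 5 lower in KP4 (23.9% and 24.1% of all genes) and 7 higher and 4 lower in MiaPaca2 (34.4% and 29.7%). Without MiaPaca2 DMSO replicate 2, which also enters the shared estimate of the spread, they were 3 and 8 in KP4 and 6 and 5 in MiaPaca2. The vasodilator peptide gene ADM rose from 6.56 ± 0.272 to 23.1 ± 1.39 CPM (SD) in KP4 and from 3.52 ± 0.9 to 16.1 ± 1.05 CPM in MiaPaca2, by 1.82 ± 0.11 (edgeR adjusted p = 1.6e-13) and 2.18 ± 0.14 (edgeR adjusted p = 2.38e-13). ANGPTL4, a secreted inhibitor of lipoprotein lipase, fell by 2.43 ± 0.10 (edgeR adjusted p = 1.67e-11) and 0.90 ± 0.094 (edgeR adjusted p = 5.81e-07). The prolyl hydroxylase gene EGLN3 rose in MiaPaca2 by 1.38 ± 0.38 (edgeR adjusted p = 0.00267) at a low level, 0.569 to 1.47 CPM, and stood at 0.698 and 0.687 CPM in KP4. In KP4 the other genes called were MXI1 (0.68) and CA12 (0.63) among those higher and VEGFA (−0.98), BHLHE40 (−1.15), ANKRD37 (−1.01) and EGLN1 (−0.39) among those lower. In MiaPaca2 those lower, besides ANGPTL4, were VEGFA (−0.46), BNIP3L (−0.47) and EGLN1 (−0.23).

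Of 9 regulators of glucose genes, 1 was higher and 4 lower in KP4, and 3 were higher and 4 lower in MiaPaca2, where 23.9% and 24.1% of all genes were higher and lower in KP4 and 34.4% and 29.7% in MiaPaca2. They were 1 and 4 in KP4 and 3 and 3 in MiaPaca2 without MiaPaca2 DMSO replicate 2. MYC, which activates many glycolysis genes, fell from 309 ± 9.52 to 211 ± 1.22 CPM in KP4 and from 385 ± 31.1 to 186 ± 5.77 CPM in MiaPaca2, by 0.55 ± 0.046 (edgeR adjusted p = 2.01e-10) and 1.05 ± 0.047 (edgeR adjusted p = 2.22e-16). EPAS1, which encodes a hypoxia-inducible factor subunit, fell by 1.51 and 1.06, and MLXIP by 0.16 and 0.12. HIF1A had log2 changes of −0.054 ± 0.041 (edgeR adjusted p = 0.296) in KP4 and 0.092 ± 0.041 (edgeR adjusted p = 0.0531) in MiaPaca2, neither past the test. Its partner ARNT rose by 0.21 and 0.17. MAX, the partner of MYC, fell by 0.13 in KP4 and rose by 0.26 in MiaPaca2, and MLXIPL fell by 0.74 in MiaPaca2. TXNIP, which restrains glucose uptake and rises with glucose supply, was nearly absent from KP4 at 0.571 and 0.51 CPM. In MiaPaca2 it stood at 56.1, 50.9 and 50.5 CPM with DMSO and 159.7, 158 and 158 CPM with trametinib, and rose by 1.59 ± 0.053 (edgeR adjusted p = 4.42e-19).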
